A study of Mus musculus with 6 samples.

Results

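A set of 10 genes of the integrated stress response was followed in mouse melanoma cells that were either left still or stretched. They are the transcription factors Atf4, Atf5, Ddit3 (which encodes CHOP), Cebpb and Cebpg, and the stress-induced or feedback genes Nupr1, Trib3, Chac1, Sesn2 and Ddit4. These 10 genes, of 14883 in the count table, were picked by name as regulators and feedback targets of this response, with their difference between the groups already known. Their differences are therefore given as a description, with no test. All 10 passed the filter on low counts, which kept 12377 genes.

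The cells were B16F10luc2, a luciferase-carrying derivative of the B16F10 mouse melanoma line, grown in DMEM with 10% FBS on Bioflex plates, whose bottoms are flexible. In the 3 stretched libraries the cells underwent 24 h of equibiaxial stretch, at 15% elongation and 15 cycles/min. In the 3 static libraries they stood on the same kind of plate without stretch. The study asked how RNA levels differ between these conditions in a single cell line. The labels do not state whether replicates were separate cultures, so the p-values below cover only the spread between these libraries, which may be technical.

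Total counts ran from 19469286 to 36351400 per library, and levels are given as CPM, counts relative to the library total after TMM scaling, which sets most genes equal on average. All 10 melanocyte markers looked up were in the table, with a summed level of 30499 to 33071 CPM in static and 25916 to 26678.5 CPM in stretched libraries. That sum was lower in every stretched library, though single markers differed: 4 of the 10 fell (Tyrp1, Dct, Pmel and Gpnmb), Mitf and Oca2 rose and 4 did not pass (edgeR, adjusted p under 0.05). Over all tested genes 25.9% fell and 24.9% rose. The median log2 fold change of the 10 markers was -0.08, and the sum's part in the results below was not tested. Summed markers of leukocytes lay at 1.90 to 2.50 CPM in static and 1.68 to 2.12 CPM in stretched libraries, over the 3 of these markers in the table. Fibroblast markers, 5 of 6 in the table, summed to 13.3 to 18.4 and 16.0 to 17.3 CPM. The 2 keratinocyte and endothelial markers in the table, of 7, summed to 0.736 to 0.805 and 0.815 to 1.36 CPM. In RNA from whole cultures, fewer cells expressing a gene and less of its RNA per cell cannot be told apart.

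As background, the integrated stress response begins when a kinase such as PERK, GCN2, PKR or HRI phosphorylates the translation factor eIF2. General translation then slows, while messages with suitable upstream reading frames, among them Atf4, are translated more. ATF4 pairs with C/EBP proteins and switches on genes of amino acid supply and redox balance, as well as CHOP. Feedback genes then limit the response: Trib3 binds ATF4 and CHOP, Sesn2 and Ddit4 restrain mTORC1, and the phosphatase subunit GADD34 (Ppp1r15a) helps to restore eIF2. ATF4 is controlled largely through translation, so its mRNA level is not a measure of its protein.

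ATF4 and C/EBP partners bind composite sites, called CARE, whose core TGATGNAA reads TTNCATCA on the other strand. The core was searched on both strands from 250 bases before to 50 after each RefSeq start site (GRCm38.p6). It occurred in the promoters of Chac1, Nupr1 and Trib3, against 3.97% of all 32851 promoters of that length. For genes of the count table the share was 2.36%. Shares count promoter entries, of which the 10 genes have 11. The matches are shown because they are the only CARE cores found in the windows of the 10 genes, with the core in capitals and 10 bases on either side, on the gene's own strand, 5′ to 3′. They lie at chr2:119351039-119351066 (+) for Chac1, chr7:126625563-126625590 (−) for Nupr1 and chr2:152344029-152344056 (−) for Trib3.
Chac1: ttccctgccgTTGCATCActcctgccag
Nupr1: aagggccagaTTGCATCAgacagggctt
Trib3: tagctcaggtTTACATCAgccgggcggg
The Chac1 and Nupr1 cores were the same 8 letters and lay upstream, starting at positions -193 and -110 from the start site. The Trib3 core started at position 15, after the start site, so 2 genes remained when only the 250 upstream bases were searched, against 3.45% of all promoters. A short stretch of bases just after the RefSeq start of Trib3 was not found in its GENCODE transcripts. The distance of its core may therefore depend on the annotation.

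Chac1 was the only gene of the 10 whose window held both a CARE core and CCAAT boxes. Its 250 bases before the start (chr2:119350992-119351241, plus strand) are given with the CARE core in capitals.
Chac1 upstream: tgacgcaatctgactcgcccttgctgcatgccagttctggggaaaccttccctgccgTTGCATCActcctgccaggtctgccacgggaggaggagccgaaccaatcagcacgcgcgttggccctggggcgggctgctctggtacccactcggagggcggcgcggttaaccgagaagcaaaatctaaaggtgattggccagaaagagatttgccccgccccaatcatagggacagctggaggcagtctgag
The 3 CCAAT boxes of Chac1 (CCAAT or, on the other strand, ATTGG) started at positions -150, -59 and -32. CCAAT occurred in 7 of the 10 genes, with 13 matches in all, against 37.4% of all promoters. No window held the full cyclic AMP element TGACGTCA (1.79% of all promoters) or the ER stress element, CCAAT with 9 free bases and CCACG (0.119%). The TATA letters TATAAA were found in Trib3 and, after the start site, in Cebpb, against 13.6%. For genes of the count table the shares were 37.9% (CCAAT), 2.84% (cyclic AMP element), 0.149% (ER stress element) and 7.54% (TATA). Motif matches can overlap one another and are letters, not measured binding, and a missing match says only that these letters are not in this window.

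**Figure D1:**
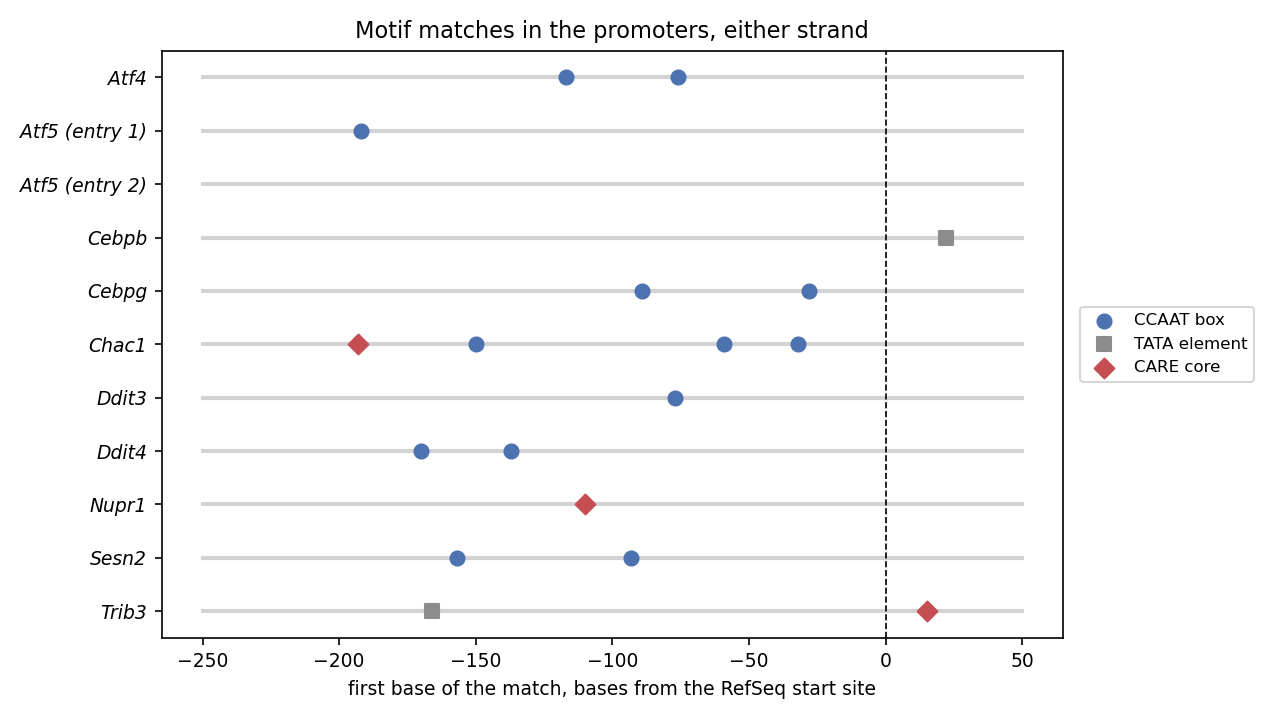
Motif matches on either strand in the RefSeq promoter windows of the 10 genes (Atf5 has 2 entries), with the first base of each match on the x axis in bases from the start site (dashed line). CARE cores (diamonds) appear for Chac1, Nupr1 and Trib3, CCAAT boxes (circles) for 7 genes and TATA letters (squares) for Cebpb and Trib3.

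In each of the 10 genes the GC content of the 250 bases before the start lay above the median of all promoters. A median for genes of the count table alone was not computed. GC content ran from 56.0% for an Atf5 entry to 81.6% for Cebpb, against a median of 52.4% over all promoters. Cebpg (70.8%) and Ddit4 (70.0%) followed Cebpb, the second Atf5 entry had 66.8% and Trib3 57.2%.

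Upstream start codons in the 5′ leader, the feature through which Atf4 and Atf5 translation is regulated, were counted in the longest coding GENCODE transcript. Atf4 had 3 upstream ATGs in 594 bases, and 1 of these opened a frame that ran into the coding sequence. Atf5 had 2 in 373 bases, 1 of them in an overlapping frame. Ddit3 had 2 in 186 bases, both closed before the coding sequence. Cebpg, Nupr1 and Sesn2 had 1 each, also closed, while Cebpb, Trib3, Chac1 and Ddit4 had none. An upstream ATG was thus present in 6 of the 10 genes, against 54.3% of 13201 genes, and an overlapping upstream frame in Atf4 and Atf5, against 17.9%.

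All 10 genes had lower RNA levels in stretched than in static cells, from 1.63-fold for Cebpg to 4.59-fold for Atf5. In each, every stretched library lay below every static library, a pattern seen in 29.4% of all tested genes, while 29.0% were higher without overlap. In 8 of the 10 the difference was more than 2-fold, against 0.897% of tested genes. The median log2 fold change of the 10 genes was -1.33, against 0.004 over all tested genes. Since the genes were chosen on this contrast, nothing is read from these shares. Levels are in TMM-scaled CPM, and errors are the SD over 3 libraries.

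Atf4, the transcription factor at the centre of the response (Entrez 11911, GRCm38 chromosome 15, 80255184 to 80257545, plus strand), had 622, 583 and 594 CPM in static replicates 1, 2 and 3 and 358, 359.9 and 351 CPM in stretched replicates 1, 2 and 3. The groups were far apart, with the stretched libraries tightly together. The means were 599.8 ± 20.1 and 357 ± 4.53 CPM (SD, n = 3 each), 1.68-fold lower under stretch, with a log2 fold change of -0.75 (SE 0.036). Only Cebpg differed less among the 10.

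Atf5 encodes a close relative of ATF4, known for its role in the response to mitochondrial stress (Entrez 107503, chromosome 7, 44812256 to 44816658, minus strand). Its static libraries stood at 561, 551 and 540.3 CPM and its stretched libraries at 119, 119.6 and 121 CPM. Replicates were nearly level within each group, and no stretched library came near a static one. The mean was 551 ± 10.5 in static and 120.0 ± 1.10 CPM in stretched cells (SD, n = 3 each), 4.59-fold lower, with a log2 fold change of -2.20 (SE 0.035). Among the 12377 tested genes this was rank 5 from the lowest fold change, so Atf5 mRNA was at 21.8% of its static level where Atf4 mRNA was at 59.5%.

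The Atf5 locus shares 571 annotated bases with Nup62, a nuclear pore gene on the opposite strand, and 289 with Il4i1b. The sources used here do not say whether counting used strand, so reads from the shared bases cannot be told apart. Nup62 stood at -0.05 on the log2 scale under stretch (SE 0.038, adjusted p = 0.293, edgeR), turning to 0.01 with scaling by library size only. Il4i1b had under 2 CPM in each group, with means of 1.47 and 1.35 CPM (log2 fold change -0.31, adjusted p = 0.537, edgeR).

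Ddit3 encodes CHOP, a C/EBP-family factor that ATF4 switches on and that is tied to cell death when stress persists (Entrez 13198, chromosome 10, 127290793 to 127296291, plus strand). Static libraries had 97.1, 84.0 and 96.7 CPM, and stretched libraries had 41.0, 39.3 and 38.6 CPM. Static replicate 2 was lowest of its group, yet still more than 2-fold above the highest stretched library (2.05-fold). The means, 92.6 ± 7.44 and 39.6 ± 1.27 CPM (SD, n = 3 each), differed 2.34-fold, with a log2 fold change of -1.22 (SE 0.055). Ddit3 overlaps Mbd6 by 77 bases and Mars1, the cytosolic methionyl-tRNA synthetase gene, by 71 bases. Mbd6 had a log2 fold change of -0.11 (adjusted p = 0.138, edgeR), which turned to 0.08 with an offset for GC content and length and was called without static replicate 2 (-0.18, adjusted p = 0.000687, edgeR). Mars1 went the other way from Ddit3, as given with the ATF4 targets below.

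Cebpb and Cebpg encode bZIP partners that pair with ATF4 and with CHOP. Cebpb (Entrez 12608, chromosome 2, 167688915 to 167690432, plus strand), an activator in inflammation and differentiation, had 23.2, 19.5 and 21.6 CPM in static and 7.74, 8.51 and 7.77 CPM in stretched libraries. It was the least abundant of the 10 in CPM, with counts down to 162 in a library, and its groups still did not overlap. The means were 21.5 ± 1.89 and 8.01 ± 0.437 CPM (SD, n = 3 each), 2.70-fold lower, with a log2 fold change of -1.43 (SE 0.081). An offset for GC content and length brought that value to -1.19, its smallest size in 18 settings.

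Cebpg (Entrez 12611, chromosome 7, 35046422 to 35056566, minus strand) encodes C/EBPγ, a short partner without an activation domain of its own. Its levels were 95.5, 98.1 and 92.2 CPM in static and 60.3, 57.3 and 57.5 CPM in stretched libraries. The static libraries were all above the stretched ones, and the nearest pair differed 1.53-fold. The mean of 95.3 ± 2.96 CPM was 1.63 times the stretched mean of 58.4 ± 1.70 CPM (SD, n = 3 each), a log2 fold change of -0.70 (SE 0.04). Its locus shares 1084 annotated bases with Gm45095, which is not in the count table. The 5 factors thus ranged from a 1.63-fold to a 4.59-fold difference.

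**Figure D2:**
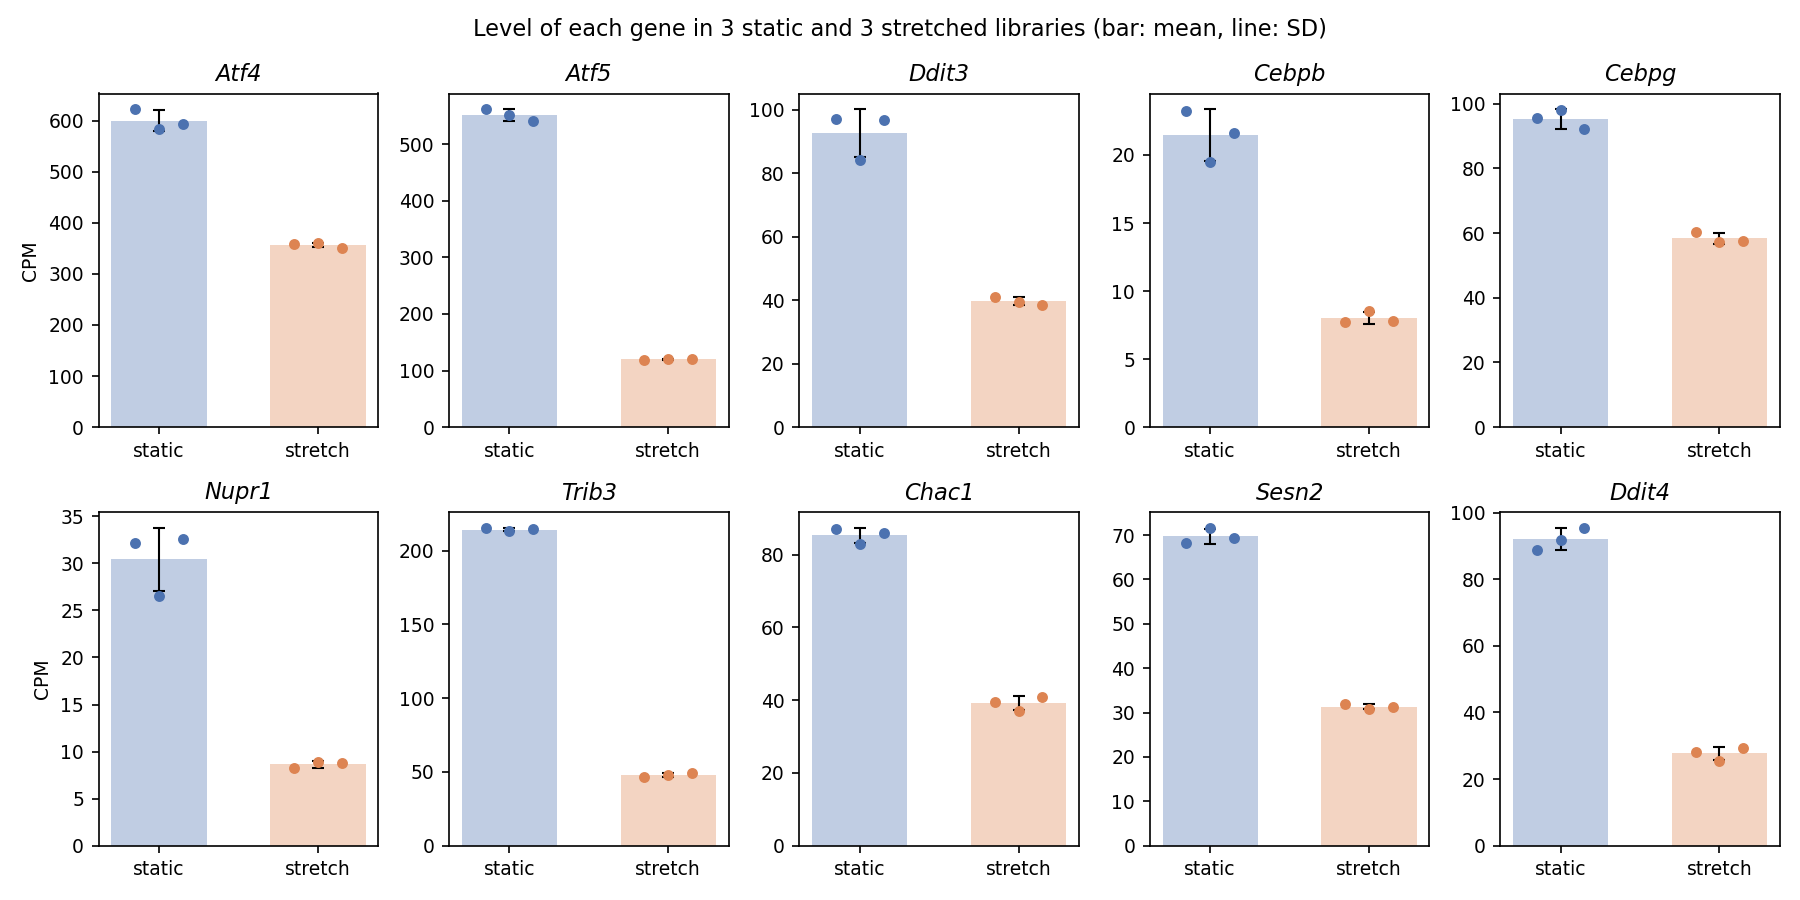
TMM-scaled level in CPM (y axis, from 0, own scale per gene) of each of the 10 genes in the 3 static and 3 stretched libraries, with points for libraries, bars for means and lines for the SD. In every panel the 3 stretched points lie below the 3 static points, with the largest ratio of means in Atf5 (551 against 120.0 CPM) and the smallest in Cebpg (95.3 against 58.4 CPM).

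Nupr1 (Entrez 56312, chromosome 7, 126623246 to 126625470, minus strand) encodes a small nuclear protein induced by many stresses. It had 32.2, 26.6 and 32.5 CPM in static and 8.22, 8.92 and 8.78 CPM in stretched libraries. Static replicate 2 was again the low library of its group, and the groups were well separated. The means of 30.4 ± 3.35 and 8.64 ± 0.367 CPM (SD, n = 3 each) differed 3.57-fold, with a log2 fold change of -1.84 (SE 0.084). All 2225 bases of the locus also lie within the annotated long noncoding RNA gene Gm39087. That gene is not in the count table, and its reads cannot be told apart from those of Nupr1. Its promoter holds the core printed above, TTGCATCA, at position -110.

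Trib3 encodes a pseudokinase that binds ATF4, CHOP and AKT and dampens the response that induces it (Entrez 228775, chromosome 2, 152337425 to 152344060, minus strand). Static libraries had 215, 213 and 215 CPM and stretched libraries 46.3, 47.7 and 49.3 CPM. Among static libraries no gene of the 10 varied less. The means were 214 ± 1.10 and 47.8 ± 1.46 CPM (SD, n = 3 each), 4.50-fold lower, with a log2 fold change of -2.17 (SE 0.038). Trib3 came at rank 7 from the lowest fold change of the tested genes, close to Atf5.

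Chac1 encodes an enzyme that breaks down glutathione in the cytosol (Entrez 69065, chromosome 2, 119351242 to 119354326, plus strand). It had 87.0, 83.0 and 85.9 CPM in static and 39.5, 37.1 and 41.0 CPM in stretched libraries. The lowest static library was 2.02 times the highest stretched one. The means were 85.3 ± 2.08 and 39.2 ± 1.98 CPM (SD, n = 3 each), 2.18-fold lower, with a log2 fold change of -1.12 (SE 0.044). Chac1 and Nupr1, whose upstream windows hold the same 8-letter core, stood at 45.9% and 28.0% of their static levels.

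Sesn2 encodes Sestrin2, a leucine-binding protein that restrains mTORC1 through GATOR2 (Entrez 230784, chromosome 4, 132492804 to 132510456, minus strand). Its levels were 68.3, 71.6 and 69.3 CPM in static and 31.9, 30.9 and 31.2 CPM in stretched libraries. Both groups were narrow and did not overlap. The means, 69.7 ± 1.71 and 31.3 ± 0.537 CPM (SD, n = 3 each), differed 2.22-fold, with a log2 fold change of -1.15 (SE 0.042).

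Ddit4 encodes REDD1, which restrains mTORC1 through the TSC complex (Entrez 74747, chromosome 10, 59949675 to 59951770, minus strand). It had 88.8, 91.9 and 95.4 CPM in static and 28.1, 25.5 and 29.4 CPM in stretched libraries. Here too the stretched libraries all lay below the static ones, and the nearest pair differed 3.02-fold. The means were 92.1 ± 3.29 and 27.7 ± 2.02 CPM (SD, n = 3 each), 3.32-fold lower, with a log2 fold change of -1.73 (SE 0.051). Of the 2 mTORC1 inhibitors, Ddit4 thus had the larger fold difference, though the difference between them was not tested.

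Within a group, no library stood at one end for all genes. Static replicate 1 was highest of its group for 6 of the 10 genes, and replicates 2 and 3 for 2 each. Among stretched libraries, replicates 1, 2 and 3 were highest for 3, 3 and 4 genes. The coefficient of variation over static libraries ran from 0.514% for Trib3 to 11.0% for Nupr1. Counting alone would give 1.39% for Trib3 and 3.72% for Nupr1, so the static libraries spread more than counting error for Nupr1 and less for Trib3. For the most abundant gene in CPM, Atf4, the static spread was 3.35% against 0.832% from counting. In stretched libraries Atf5 varied by 0.914% and Ddit4 by 7.28%, the extremes of the 10, against 1.81% and 3.78% from counting.

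Levels can be compared between genes only per transcript length, here on the TPM scale (counts divided by the longest GENCODE M21 transcript, then scaled to a common total). In static cells Atf5 (789 ± 14.7) and Atf4 (773 ± 32.7 TPM) came first with overlapping libraries, followed by Trib3 (275 ± 6.13) and Ddit3 (249 ± 23.9 TPM). Next were Chac1 and Ddit4, both at 136 TPM (SD 5.38 and 6.72), then Cebpg (52.6 ± 0.641) and Sesn2 (52.2 ± 0.979 TPM), and last Cebpb (37.1 ± 3.68) and Nupr1 (32.4 ± 4.09 TPM; n = 3 throughout). Each of these last 3 pairs overlapped between its members, and the other neighbours did not.

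In stretched cells the order changed at the top. Atf4 stood alone at 481 ± 10.4 TPM, above Atf5 at 180.0 ± 0.157 TPM and Ddit3 at 112 ± 4.45 TPM (n = 3 each). Trib3, at 64.3 ± 1.42 TPM, came after Chac1 at 65.2 ± 2.89 TPM, and this was the only overlapping pair of neighbours. Below them were Ddit4 (43.0 ± 2.88), Cebpg (33.8 ± 1.18), Sesn2 (24.6 ± 0.540), Cebpb (14.5 ± 0.850) and Nupr1 (9.61 ± 0.380 TPM). With the mean transcript length of each gene instead, Atf4 came before Atf5 in static cells as well, again with overlapping libraries. Cebpb then replaced Nupr1 as the lowest. The longest Nupr1 transcript has 2449 bases, more than its RefSeq locus of 2225 bases, and the mean length is 879. With that mean, Nupr1 stood at 48.9 ± 6.16 TPM in static and 14.5 ± 0.576 TPM in stretched cells. In stretched cells Trib3 (66.8 ± 1.57 TPM) then lay above Chac1 (35.4 ± 1.61 TPM) without overlap. Cebpg (45.2 ± 1.54 TPM) lay above Chac1 and Ddit4 (23.3 ± 1.59 TPM). The order in the middle and at the bottom thus depends on the length used.

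**Figure D3:**
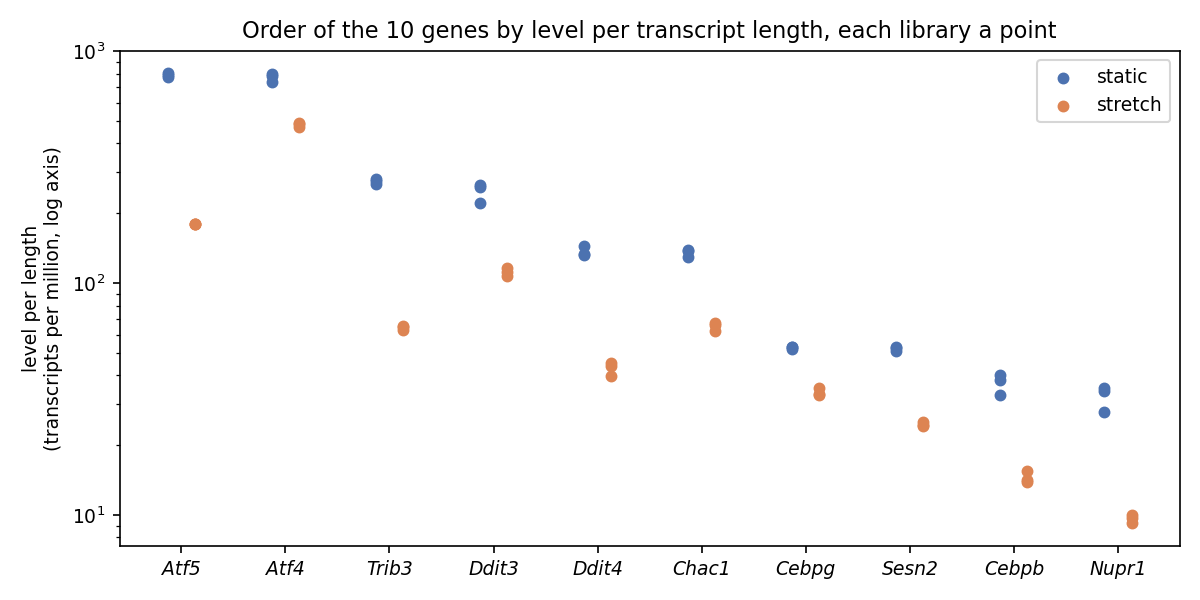
Level per transcript length in TPM (log y axis) for the 10 genes, ordered by the static mean, with a point for each of the 3 static and 3 stretched libraries. Atf5 and Atf4 share the top in static cells (789 and 773), whereas in stretched cells Atf4 (481) stands above Atf5 (180.0).

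Other genes of the pathway were read from lists compiled with earlier results of these data known, so a list's direction is not independent evidence. Each gene was tested with edgeR's quasi-likelihood test and Benjamini-Hochberg adjustment over all 12377 genes. At an adjusted p under 0.05, 25.9% of tested genes fell and 24.9% rose, 50.9% in all. Of all calls 49.0% were higher, and 63.2% were with library size as the only scaling.

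Upstream of ATF4, 19 genes of the eIF2 kinases, phosphatases, exchange factor and their partners were tested. Of these, 4 fell, 5 rose and 10 did not pass, where 25.9% of all tested genes fell and 24.9% rose. The list's median log2 fold change was 0.00. Without static replicate 1 or any of the 3 stretched replicates, 3 of the list rose, and with library size only 7 rose. Ppp1r15a, the stress-induced phosphatase subunit GADD34, fell most, from 30.0 ± 1.95 to 15.6 ± 0.511 CPM (log2 fold change -0.95, adjusted p = 2.12e-08, edgeR). Its constitutive counterpart Ppp1r15b, named after its value was seen, had -0.03 (adjusted p = 0.549, edgeR). Dnajc3, an inhibitor of PERK and PKR, fell by 0.17 on the log2 scale (adjusted p = 0.000833, edgeR), and Eif2b2, a subunit of the exchange factor, fell by 0.14 (adjusted p = 0.00584, edgeR), a call lost in 3 of 17 alternatives, among them library size only. Dele1, the mitochondrial protein that relays stress to HRI, had -0.13 (adjusted p = 0.0173, edgeR), a call lost in 8 of 17 alternatives.

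Of the 4 kinases only Eif2ak2 (PKR) passed, and it rose, from 37.8 ± 0.559 to 43.9 ± 0.722 CPM (log2 fold change 0.21, adjusted p = 0.000784, edgeR). The log2 fold changes of Eif2ak1 (HRI), Eif2ak3 (PERK) and Eif2ak4 (GCN2), named after their values were seen, were 0.00, -0.10 and 0.05, with adjusted p of 1.0, 0.0602 and 0.466 (edgeR). Eif2s3x, the gamma subunit of eIF2, rose by 0.17 (adjusted p = 0.00171, edgeR), as did Eif2b1 by 0.17 (adjusted p = 0.00765, edgeR), the latter not called without static replicate 1 or stretched replicate 3. Impact, a GCN2 inhibitor, had 0.19 (adjusted p = 0.0251, edgeR), a call lost in 6 of 17 alternatives. These are RNA levels and not kinase activity.

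Of 38 listed targets of ATF4 outside the 10 genes, 34 were found in the count table and 32 passed the filter. The symbol Nars1 matched no gene number, so whether that target is in the table is not known. Among these 32 targets 31 were called lower, against 25.9% of all tested genes. The median log2 fold change of the 32 was -0.64. In 6 of them the fall was more than 2-fold, against 0.897% of all tested genes. Slc6a9, a glycine transporter, went from 54.1 ± 2.23 to 17.0 ± 0.812 CPM (log2 fold change -1.68), and Slc7a11, the cystine importer, from 393 ± 6.56 to 125 ± 11.8 CPM (-1.65). Its partner chain Slc3a2 fell from 627 ± 0.937 to 340.2 ± 6.75 CPM (-0.88, adjusted p = 9.20e-11, edgeR). Aldh1l2, a mitochondrial folate enzyme, fell from 311 ± 4.29 to 132 ± 6.08 CPM (-1.23). The adjusted p was 1.63e-11 (edgeR) for Slc6a9, Slc7a11 and Aldh1l2 alike.

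Mars1, which overlaps Ddit3 at its end, was the only target called higher. It had 135 ± 1.75 CPM in static and 143 ± 2.65 CPM in stretched cells (SD, n = 3 each), 0.09 higher on the log2 scale (SE 0.035, adjusted p = 0.0492, edgeR). The call was lost in 10 of 17 alternatives, among them leaving out any library but static replicate 2, with adjusted p from 0.000934 to 0.159. Ddit3 and Mars1 differed in direction in the main setting. Whether reads from their shared bases affected either value was not tested.

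Among the other bZIP factors, 19 of 33 tested genes fell, 3 rose and 11 did not pass. Over all tested genes 25.9% fell and 24.9% rose. The median log2 fold change of the list was -0.26. Nfil3, a transcriptional repressor, fell from 20.2 ± 0.716 to 9.20 ± 0.472 CPM (-1.13, adjusted p = 1.02e-08, edgeR), and Nfe2l1, which controls proteasome genes, from 417 ± 4.20 to 231 ± 3.07 CPM (-0.85, adjusted p = 1.08e-10, edgeR). Jdp2, a repressor that pairs with Jun proteins, fell by 0.72 (adjusted p = 1.42e-08, edgeR), and Atf6, the ER stress sensor, by 0.54 (adjusted p = 2.49e-08, edgeR). Atf3, a stress-induced factor named after its value was seen, fell from 9.30 ± 1.08 to 4.70 ± 0.0511 CPM (-0.99, adjusted p = 2.08e-06, edgeR). The 3 that rose were Hlf, at about 1 CPM (0.690 ± 0.137 to 1.24 ± 0.0975 CPM, log2 fold change 0.89, adjusted p = 0.00601, edgeR), Tef (0.16, adjusted p = 0.00272, edgeR) and Creb1 (0.26, adjusted p = 2.66e-05, edgeR). The Creb1 call was lost under an offset for GC content and length (log2 fold change 0.09, adjusted p = 0.0522, edgeR).

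Of 6 tested paralogs of the feedback genes, 2 fell, 1 rose and 3 did not pass, with a median log2 fold change of 0.01. Over all tested genes 25.9% fell and 24.9% rose, so nothing particular to paralogs is read from these counts. Trib2 rose from 3.44 ± 0.353 to 5.60 ± 0.0963 CPM (0.70, adjusted p = 0.000145, edgeR), while Trib1 had 14.9 ± 0.306 and 16.3 ± 0.667 CPM (0.13, adjusted p = 0.117, edgeR). Sesn3 fell from 23.2 ± 0.338 to 17.4 ± 1.05 CPM (-0.42, adjusted p = 4.76e-05, edgeR), and Sesn1 had -0.11 (adjusted p = 0.178, edgeR). Ddit4l, the relative of Ddit4, fell from 7.86 ± 0.241 to 5.06 ± 0.309 CPM (-0.62, adjusted p = 7.21e-05, edgeR). Chac2, a second glutathione-degrading enzyme, had 0.22 (adjusted p = 0.126, edgeR). The Trib1 value passed with library size only (adjusted p = 0.0273, edgeR) and under the offset for GC content and length (adjusted p = 0.013, edgeR).

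Of 8 tested genes linked to CHOP, 4 fell and 4 did not pass, with a median of -0.16. The 4 that did not pass, named after their values were seen, were Tnfrsf10b (-0.17), Bcl2l11 (-0.15), Mcl1 (-0.06) and Bcl2 (0.05). Over all tested genes 25.9% fell and 24.9% rose. Ero1a, an oxidase that forms disulfide bonds in the ER, fell from 294 ± 14.9 to 135 ± 3.71 CPM (-1.12, adjusted p = 9.16e-11, edgeR), and Bbc3, which encodes the death protein PUMA, from 12.8 ± 0.832 to 8.06 ± 0.517 CPM (-0.67, adjusted p = 1.11e-05, edgeR). Bax and Bak1, effectors of mitochondrial cell death, had small calls of -0.19 and -0.12 (adjusted p = 0.00105 and 0.0343, edgeR). With the GC and length offset 2 of the 4 calls remained, and that of Bak1 was lost in 9 of 17 alternatives.

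Genes of mTORC1 control, the complex that Sesn2 and Ddit4 restrain, fell in 4 and rose in 5 of 21 cases, with a median of -0.02. The shares over all tested genes were 25.9% and 24.9%. Without static replicate 1 or 2, or stretched replicate 1 or 2, 3 of the list rose, and with library size only 7 rose. Deptor, an mTOR inhibitor, rose from 36.9 ± 1.69 to 54.8 ± 1.22 CPM (0.56, adjusted p = 1.52e-07, edgeR). Akt1s1, which encodes the inhibitor PRAS40, fell from 138 ± 6.28 to 97.0 ± 2.72 CPM (-0.51, adjusted p = 1.45e-07, edgeR). Rps6kb1, the S6 kinase, and Sec13, a GATOR2 subunit, rose by 0.29 and 0.18 (adjusted p = 3.41e-05 and 0.0016, edgeR). Castor2, of the arginine sensor family, fell by 0.34 (adjusted p = 4.91e-05, edgeR). Tsc2 (-0.14), Wdr24 (-0.17) and Mtor (0.11) had calls lost in 3, 7 and 8 of 17 alternatives.

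In the glutathione cycle around Chac1, 5 of 10 tested genes fell, 3 rose and 2 did not pass. The shares that fell and rose over all tested genes were 25.9% and 24.9%. The median of the list was -0.05, and it ran from -0.15 (without static replicate 2) to 0.02 (no filter). Ggt1, which cleaves glutathione outside the cell, fell from 28.9 ± 1.26 to 10.4 ± 0.533 CPM (-1.46, adjusted p = 3.27e-10, edgeR). Gclm, a subunit of the rate-limiting synthesis enzyme, fell from 143 ± 6.30 to 68.6 ± 5.76 CPM (-1.05, adjusted p = 1.22e-09, edgeR), and Gss, the second synthesis enzyme, by 0.18 (adjusted p = 0.00607, edgeR). Oplah, the 5-oxoprolinase, was low and fell from 3.41 ± 0.165 to 1.86 ± 0.548 CPM (-0.86, adjusted p = 0.00095, edgeR). Ggct, which acts on the product of Ggt1, was also low and rose from 3.01 ± 0.198 to 5.12 ± 0.276 CPM (0.75, adjusted p = 9.11e-05, edgeR). Lap3 rose by 0.23 (adjusted p = 0.000142, edgeR) and Ggt7 by 0.13 (adjusted p = 0.0198, edgeR). The Ggt7 call was lost without static replicate 2 (adjusted p = 0.0518, edgeR) and without stretched replicate 1 (adjusted p = 0.118, edgeR).

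**Figure D4:**
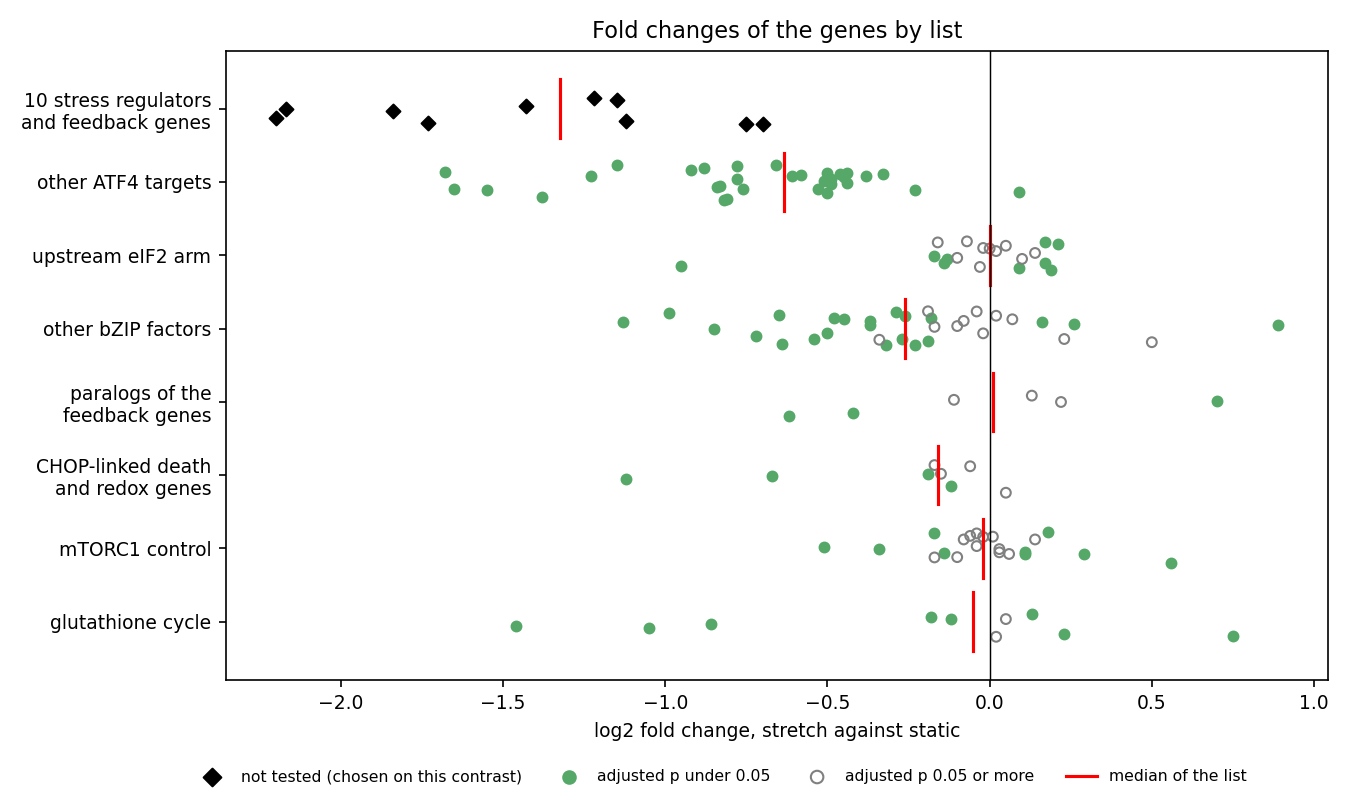
Log2 fold change of stretched against static cells (x axis) for each tested gene of the 8 lists, with the 10 regulators as diamonds (not tested), filled circles for an adjusted p under 0.05, open circles for the rest and a red line at each median. The 10 regulators lie from -2.20 to -0.70 and 31 of 32 other ATF4 targets lie below 0, while upstream eIF2 genes centre on 0.00.

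The genes whose levels over the 6 libraries most resembled the mean profile of the 10 were found among 9986 genes with a mean of at least 5 CPM. Likeness was the root mean square difference of log2(CPM + 0.5), centred on the static mean. The mean profile stood at 0.03, -0.05 and 0.02 in static and at -1.41, -1.42 and -1.40 in stretched libraries. Nearest was Acot2, a mitochondrial acyl-CoA thioesterase, at a difference of 0.066. It had 49.8, 45.3 and 50.1 CPM in static and 19.5, 18.9 and 18.3 CPM in stretched libraries, with static replicate 2 lowest of its group, as for Atf4, Ddit3, Cebpb, Nupr1, Trib3 and Chac1. Next were Ggt1 (0.07), Mxd4, a repressor that pairs with MAX (0.094), Mvd of the mevalonate pathway (0.095) and Gadd45a, a growth arrest gene (0.107). This likeness was computed on 6 libraries of 1 contrast and carries no test.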

How the data were processed

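RNA from 3 static and 3 stretched samples of B16F10luc2 cells was compared, grouped by the labels. Values were the authors' estimated counts, whole numbers for each gene with no scaling between samples. The submitters' processing notes name Salmon 1.4.0, mm10 and GRCm38 without their roles. How RNA was selected, strand, and the summing to genes were not given in the sources used here. Such counts divide reads between similar transcripts, which adds uncertainty for paralogs. Symbols, positions and promoters came from RefSeq GRCm38.p6 (14875 of 14883 numbers matched, and all 10 members), transcripts from GENCODE M21.

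The members, gene lists and motifs were chosen with earlier results of these data known. In edgeR 4.0.16 (R 4.3.3) genes passed filterByExpr with a minimum count of 10 (12377 kept, 2506 removed), libraries were scaled by TMM (factors 0.966 to 1.02), and a two-sided quasi-likelihood test of the group was run with 4 residual degrees of freedom, on counts rounded to whole numbers, and adjusted by Benjamini-Hochberg over all tested genes. An adjusted p under 0.05 was a call. The biological coefficient of variation was 3.6%. The procedure was also run on simulated counts with few changed genes and a fixed dispersion. That run does not show its error rate where many genes differ, as here.

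Named genes were the 10 members, the 4 called genes of lowest p per direction in each list, all tested paralogs, the 5 nearest profiles and genes overlapping a member. Some are named without a full set of values, and others are marked as named after their values were seen. Alternatives were RLE, upper quartile and library-size scaling, no filter or 5 CPM in 3 libraries, DESeq2 1.42.0, limma-voom (limma 3.58.1), counts thinned to 19469286, each library left out, the replicate number as a block, an offset for GC content and length (a natural spline with 5 degrees of freedom, known for 99.2% of tested genes), and both together. The length basis of levels and the promoter window were also varied. Of the leukocyte markers, 1 is not reported here.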

Additional observations from a re-analysis of the deposited data

How the results depend on the processing

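The log2 fold changes of the 10 genes were below 0 in all 18 settings, from -2.22 to -2.05 for Atf5 and from -0.77 to -0.64 for Cebpg. Other ATF4 targets were called lower in 31 cases under each of the 17 alternatives, while those called higher numbered 0 under RLE scaling, no filter, DESeq2, thinned counts and the replicate block (0 to 1 with a library left out), against 1. With library size only, 2 upstream eIF2 genes and 2 mTORC1 genes were called lower, against 4 each. Upstream eIF2 genes called higher numbered 3 to 5 with a library left out and 7 with library size only, against 5. mTORC1 genes called higher numbered 3 with no filter, DESeq2 or the replicate block and 3 to 4 with a library left out, against 5. With library size only they numbered 7. Paralogs called higher numbered 2, against 1, with library size only, the GC and length offset, or that offset with the replicate block. With the offset, alone or with the block, 2 genes linked to CHOP were called lower, against 4. Of 52 named genes outside the 10, 36 kept both their call and their direction under every alternative that tested them (17, or 16 for Hlf and Oplah). Log2 fold changes turned sign for Nup62 (0.01 with library size only, 0.05 with the offset alone and with the block), Mbd6 (0.08 with the offset, alone and with the block, but called at -0.18 without static replicate 2) and Il4i1b (0.25 without static replicate 1, 0.10 without stretched replicate 1). Atf4 ranked 1 instead of 2 in static level per length with mean transcript lengths. The list medians ran from -0.02 to 0.06 for upstream eIF2 genes, -0.03 to 0.07 for paralogs, -0.04 to 0.04 for mTORC1 genes and -0.20 to -0.10 for genes linked to CHOP. The cause of these changes was not tested. The labels do not say whether same-numbered libraries were paired. Deviations of same-numbered libraries correlated at -0.012, 0.005 and -0.077. With groups of 3 libraries these values cannot decide whether a pairing exists. The replicate block gave 5967 calls over all genes against 6298. Apart from the mTORC1 and ATF4 target counts given above, the block moved no list's count by over 1.5 times. Counting error limits Cebpb and Nupr1 most. The smallest exact two-sided permutation p for 3 against 3 is 0.1, so the calls rest on spread shared between genes.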
